A study of Mus musculus with 8 samples.

Results

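Glycolysis and the traffic of glucose and lactate were followed through 33 genes in RNA sequencing of mouse eyes. The genes were chosen by symbol and by role. There were 2 glucose transporters, 3 hexokinase and isomerase genes, 3 phosphofructokinases, 3 PFKFB enzymes and 3 aldolase and triose isomerase genes. The others were 7 genes listed with the payoff phase, 2 lactate dehydrogenases, 5 lactate transport genes and 5 pyruvate dehydrogenase subunits or kinases. All 33 were found among the 32517 genes of the count table, and all 33 passed the filter on low counts, with a smallest count of 97, for Slc16a7. The mice were cKO (Cre+), which carry a retina-specific deletion of Nr3c1, the gene of the glucocorticoid receptor, and WT (Cre-). All were males aged 12 weeks on a cycle of 12 h light and 12 h dark, with no drug treatment named. Eyes were taken at zeitgeber times ZT3, ZT9, ZT15 and ZT21, in hours after lights-on, so that ZT3 and ZT9 lie in the light and ZT15 and ZT21 in the dark. Each of the 8 libraries, 4 per genotype, is a pool of equal RNA from 3 mice, and no time has a second pool of the same genotype. The p-values below therefore do not measure the spread between pools alone. In the genotype fit, changes of the genotype difference between times add to that spread. In the rhythm fits, departures from a 24 h wave add to it. In the fit of a wave shared by both genotypes, changes of the genotype difference between times add to it as well. The promoter that drives Cre is not given in the sources used here.

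In glycolysis, glucose is phosphorylated, split into 2 trioses and oxidised to pyruvate. Pyruvate is either reduced to lactate or passed to the mitochondria through pyruvate dehydrogenase. Photoreceptors are known for turning much of their glucose into lactate even when oxygen is at hand. The retinal pigment epithelium passes glucose inwards and lactate outwards, and the lens, which has no blood vessels, lives largely on glycolysis.

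The libraries held between 11748995 and 20309611 counts. Nr3c1 itself stood at 38.2, 35.2, 36.4 and 32.5 CPM (counts scaled to a common library total) in the cKO eyes, against 78.1, 145, 127 and 134 CPM in the WT eyes, in the order ZT3, ZT9, ZT15 and ZT21 used for every gene below. The groups did not overlap (log2 difference -1.73, SE 0.18, DESeq2 adjusted p = 4.44e-13, edgeR adjusted p = 0.157). Part of the labels names the ciliary body and its epithelium, whereas the protocols name whole eyes. The markers were those of whole eyes: 12 rod genes summed to 56499.5 to 66194 CPM in cKO and 48828 to 59753 CPM in WT, and 12 lens genes summed to 128689 to 177444 CPM in cKO and 80762 to 106271 CPM in WT. Of 8 ciliary body genes 7 passed the filter, and the 8 together summed to 1228 to 1412 CPM in cKO and 934 to 1361 CPM in WT.

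The 33 genes differed widely in level. Levels were divided by the length of all annotated exons of a gene, joined over its transcripts. That length can exceed the length of the transcripts present in the eye, so the order between genes is approximate. Per kilobase of annotated exon, Gapdh and Aldoa led with means over the 8 libraries of 729 and 727 CPM per kb. Basigin (Bsg), the chaperone of the lactate transporters, followed at 599 CPM per kb, then pyruvate kinase (Pkm) at 495 and enolase 1 (Eno1) at 268 CPM per kb. The transporters and regulators were lower: Slc2a1 had 69.5, Slc16a8 31.4, Pfkfb2 12.8 and Slc16a7 1.14 CPM per kb. Of the 32 neighbouring pairs in this order, 30 had ranges over the libraries that overlapped. The pairs that did not were Pdk3 above Pdk1 and Pfkfb3 above Pfkfb4. In 7 of the 32 pairs the order held in all 8 libraries, and Gapdh was above Aldoa in only 4.

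**Figure D1:**
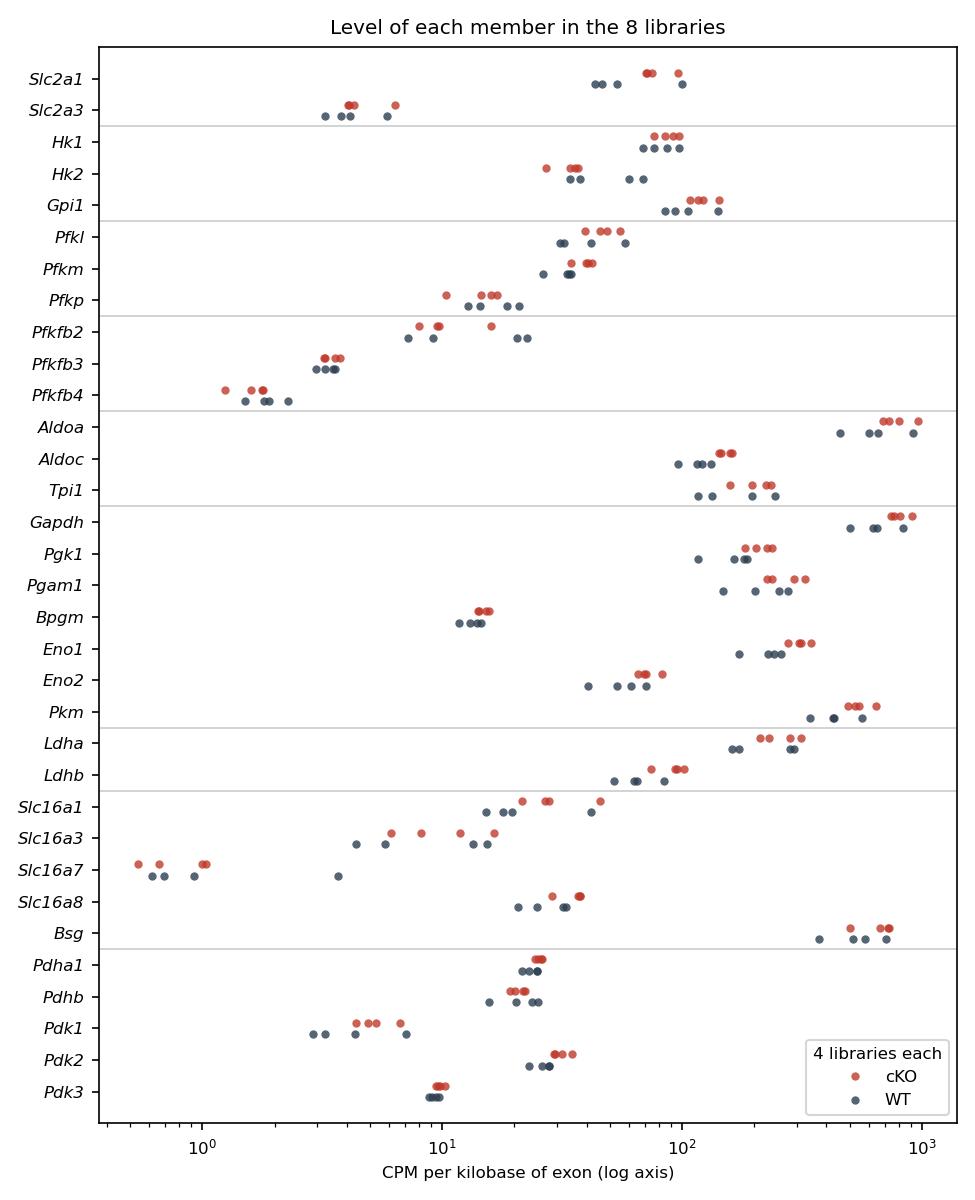
Level of each of the 33 genes in CPM per kilobase of exon on a log axis, with 1 point per library, cKO (red) above WT (dark), and grey lines between roles. Gapdh, Aldoa, Bsg and Pkm lie at the right and Slc16a7 at the left, where its WT ZT9 library (3.67 CPM per kb) stands apart.

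Time of day was the first axis along which the genes differed. The clearest gene was Slc16a3, which encodes the lactate exporter MCT4: its level in the dark was higher in both genotypes. Lactate dehydrogenase A (Ldha), triose phosphate isomerase (Tpi1) and phosphofructokinase L (Pfkl) also stood higher in the dark, while Slc16a1, Pdk1 and Pfkfb2 were highest at ZT3 in both genotypes. A 24 h cosine wave shared by both genotypes was fitted with edgeR across all genes. No gene of the 15373 tested passed an adjusted p of 0.05 (0%), and 13 of the 33 genes, or 39.4%, reached an unadjusted p under 0.05, against 2731 of all genes (17.8%). With limma the number past the adjusted threshold was also 0. DESeq2, another count test, called 609 of 13584 genes (4.48%), among them 3 of the 33: Slc16a3, Ldha and Pgam1 (adjusted p = 1.99e-09, 0.0106 and 0.0212). Over the 33 genes the median log2 difference of light minus dark was -0.12 (0.01 over all genes). That of ZT9 and ZT15, around lights-off, minus ZT21 and ZT3, around lights-on, was -0.13 (0.02 over all genes). Of the 33, 9 were higher in the light and 24 in the dark, against 7974 and 7399 of all 15373 genes. Without both ZT3 libraries 5 genes reached the unadjusted threshold, namely Hk2, Ldha, Pgam1, Pgk1 and Slc16a3 (15.2% of the 33, against 2.65% of all genes). Without both ZT21 libraries there were 7 (21.2%, against 27.1% of all genes). Leaving out single libraries gave 4 without cKO ZT3 (12.1%, against 5.65% of all genes), 7 without WT ZT3 (21.2%, against 6.05%) and 7 without cKO ZT21 (21.2%, against 11.6%). There were 7 without WT ZT15 (21.2%, against 13.4%) and 8 without WT ZT9 (24.2%, against 20.7%).

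Other sets of transcripts were also highest at ZT3. The 13 protein-coding genes of the mitochondrial genome summed to 64311 CPM at cKO ZT3, against 20894 to 41265 CPM in the other cKO libraries, and to 51110.3 CPM at WT ZT3, against 10514 to 12541 CPM in the other WT libraries. The 10 Müller glia markers were highest at ZT3, at 6613 CPM in cKO (4286 CPM in the lowest cKO library) and 5856 CPM in WT (2735 CPM in the lowest WT library). The 8 pigment epithelium markers were likewise highest there, at 1932 CPM in cKO and 1815 CPM in WT. The part of these differences in the values of Slc16a1, Slc2a1, Slc2a3, Pfkfb2 and Pdk1, which are also highest at ZT3, was not tested.

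**Figure D2:**
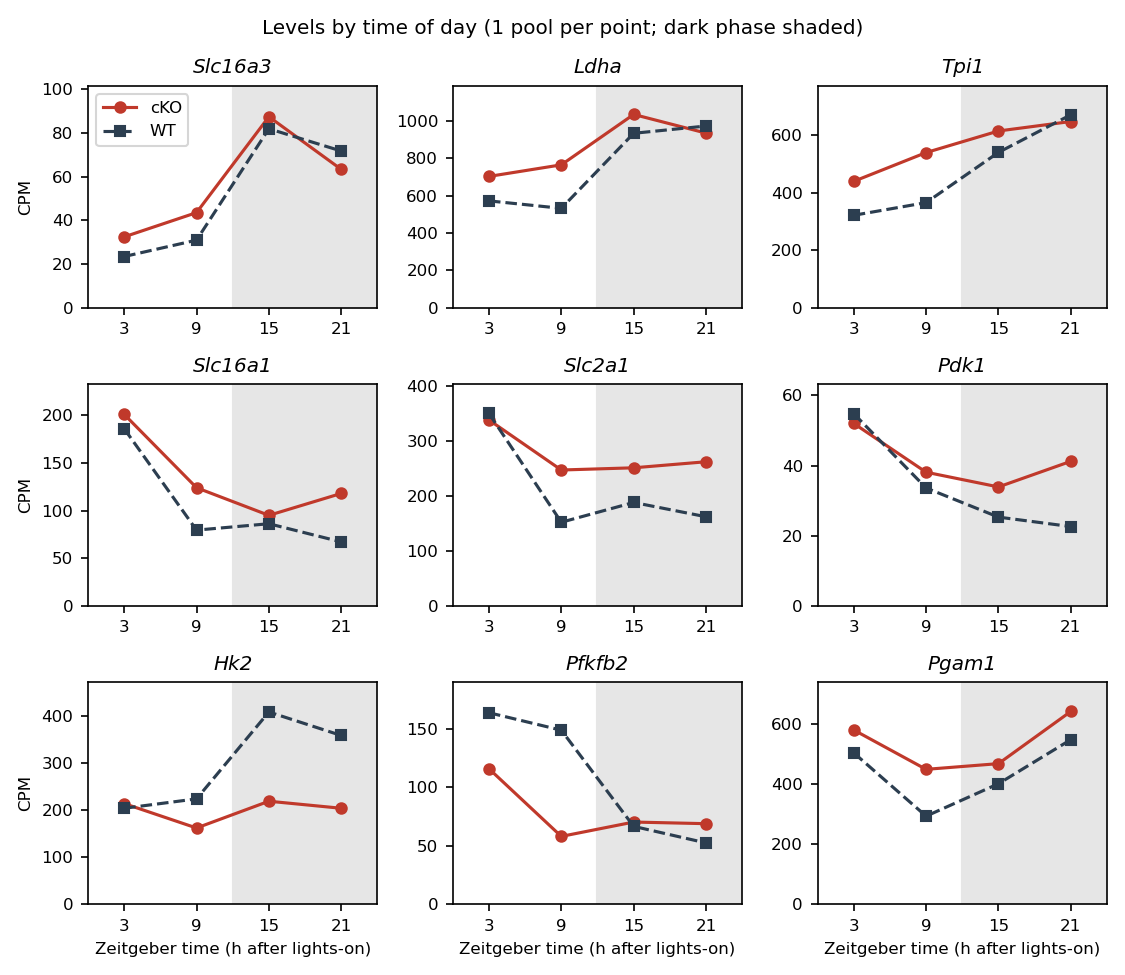
CPM of 9 genes against zeitgeber time in hours, for cKO (red circles) and WT (dark squares), with 1 pool of 3 mice per point and the dark phase shaded. Slc16a3, Ldha and Tpi1 are higher in the dark, Slc16a1, Slc2a1 and Pdk1 are highest at ZT3, and Hk2 reaches 409 CPM in WT eyes at ZT15, against 219 CPM in cKO eyes.

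**Figure D3:**
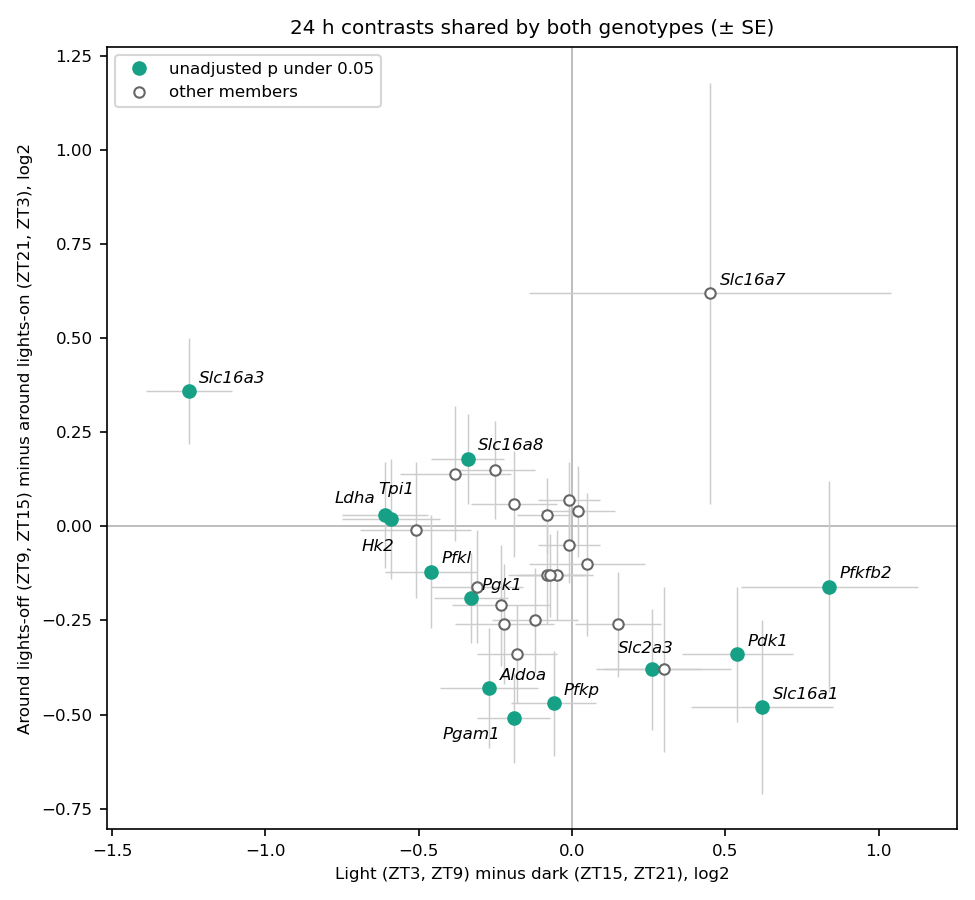
Light minus dark (x axis) against the times around lights-off minus those around lights-on (y axis), both as log2 differences over 8 libraries with bars of ± SE. Filled points are the 13 genes at an unadjusted p under 0.05, and Slc16a3 lies farthest to the left at -1.25.

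The promoters of 3 genes are printed because they stand for the patterns above: Slc16a3 and Ldha for the dark phase and Hk2 for the difference between genotypes. The letters are from RefSeq on GRCm38.p6, from 250 bases before to 50 bases after a transcription start, 5′ to 3′ on the strand of the gene. Capitals mark ACGTG or its reverse complement CACGT, one of the cores to which hypoxia-inducible factors bind. The windows are chr11:120948817-120949116 (plus strand), chr7:46845554-46845853 (plus strand, the first of 2 starts) and chr6:82774405-82774704 (minus strand), in the order of the lines.
Slc16a3: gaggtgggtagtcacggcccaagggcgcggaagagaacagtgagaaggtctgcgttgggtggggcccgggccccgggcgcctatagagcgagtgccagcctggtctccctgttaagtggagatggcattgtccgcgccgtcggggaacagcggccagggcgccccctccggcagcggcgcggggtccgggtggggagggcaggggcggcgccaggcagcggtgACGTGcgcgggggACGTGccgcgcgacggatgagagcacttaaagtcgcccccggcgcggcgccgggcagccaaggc
Ldha: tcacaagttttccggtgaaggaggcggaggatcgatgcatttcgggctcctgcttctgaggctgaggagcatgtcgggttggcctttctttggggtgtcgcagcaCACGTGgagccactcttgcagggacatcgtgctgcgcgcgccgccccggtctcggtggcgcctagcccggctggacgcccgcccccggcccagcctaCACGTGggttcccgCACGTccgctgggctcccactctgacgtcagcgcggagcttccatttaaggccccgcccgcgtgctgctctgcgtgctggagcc
Hk2: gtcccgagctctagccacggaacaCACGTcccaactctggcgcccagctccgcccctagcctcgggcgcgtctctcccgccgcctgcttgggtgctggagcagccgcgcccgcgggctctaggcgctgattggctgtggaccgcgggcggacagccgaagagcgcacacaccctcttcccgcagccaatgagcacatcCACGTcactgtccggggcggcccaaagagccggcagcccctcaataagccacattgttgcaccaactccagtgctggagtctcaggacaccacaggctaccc
Slc16a3 holds 2 such matches, Ldha 5 and Hk2 2. In Ldha 4 of the 5 come from 2 copies of CACGTG, the E-box bound by clock factors, which contains ACGTG on both strands.

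Promoter windows were found for 30 of the 33 genes, and ACGTG was searched on both strands in all of them. It occurred at 1 or more starts of 18 genes (60%), against 21.8% of 27025 genes with a promoter in the same table. The related core GCGTG occurred in 19 (63.3%), against 35.2% of all genes, and CACGTG in 6 (20%), against 8.09%. Counted per promoter, ACGTG was in 47.8% of 46 windows and in 19.6% of all 32851. The windows of the 33 genes were also richer in G and C, with a median of 61% against 52.7%. The palindromic glucocorticoid response element, to which the glucocorticoid receptor binds, was matched in 0 of the 30 genes and in 0.537% of all genes. A match describes letters in a window and not a bound site. Bsg, Slc16a7 and Slc2a3 were not among the 30.

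Between the genotypes, most glycolytic genes stood slightly higher in cKO eyes, with Hk2 as the clearest opposite case. The log2 difference of cKO over WT came from a model with time as a factor. It was positive for 27 of the 33 genes and negative for 6, against 7010 and 8363 of all 15373 genes. Its median was 0.26 (-0.03 over all genes), with a range of -0.53 for Hk2 to 0.48 for Ldhb. None of the 33, and none of all 15373 genes (0%), passed an adjusted p of 0.05 in edgeR, where the adjusted p of the 33 genes ran from 0.162 to 0.966, nor did any in limma. At an unadjusted p under 0.05 there were 12 genes higher in cKO (36.4% of the 33), against 1621 of all genes (10.5%). One gene, Hk2, was lower (3.03%), against 1690 of all genes (11%). DESeq2 called 3 of 31 genes higher, Eno1, Pgk1 and Ldhb (adjusted p = 0.0308, 0.037 and 0.0489), and 0 lower, against 397 higher (4.66%) and 149 lower (1.75%) of 8518 genes. At all 4 times 15 of the 33 (45.5%) were higher in cKO and 0 were lower, against 15.7% and 15.1% of all genes. Aldoc, Eno1 and Pdk2 were higher in cKO with no overlap of the groups (9.09% of the 33, against 3.73% of all genes), and none was lower without overlap (3.16% of all genes).

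The excess was largest at ZT9. The median log2 difference of the 33 genes, at a pseudocount of 0.5 CPM, was 0.21 at ZT3, 0.52 at ZT9, 0.18 at ZT15 and 0.13 at ZT21, and over all genes it lay between -0.03 and 0.00. For 22 of the 33 genes the difference was at its most positive at ZT9, and 17 of the 33 had their lowest WT level there. The same counts over all genes are not given here. Summed over the 33 genes, the cKO eyes held 17258, 17681, 17156 and 20451 CPM, against 14405, 11821, 15203 and 18794 CPM in the WT eyes. The means were 18137 ± 1559.8 CPM in cKO and 15056 ± 2880.3 CPM in WT (SD over 4 times), and WT ZT9, the library with the fewest counts, was the lowest of all 8. Without both ZT9 libraries 6 genes were higher at an unadjusted p under 0.05 (18.2% of the 33, against 6.37% of all genes), and without both ZT15 libraries 6 (18.2%, against 6.04%). Leaving out any one of cKO ZT9, cKO ZT15, WT ZT9 and WT ZT15 also left 6, against 6.05 to 6.62% of all genes, and a fit with no time factor gave 5 (15.2%, against 5.63%). Without cKO ZT9 the log2 difference was 0.20 for Gapdh, 0.24 for Eno2, 0.19 for Aldoa, 0.19 for Pfkm, 0.15 for Pfkl, 0.13 for Ldha, 0.12 for Gpi1 and 0.07 for Slc2a3, each over 1.5 times below its value with all libraries.

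Lens transcripts moved with the genotype. The summed level of the 12 lens markers did not overlap between cKO and WT, and DESeq2 called 11 of the 12 higher in cKO. With the lens level as a covariate the median of the 33 genes was -0.13, 8 of the 33 were positive, and 2 were higher at an unadjusted p under 0.05 (Pfkfb2 with 1.23 and Slc16a7 with 3.22), with 0 lower. That is 6.06% of the 33, against 5.89% of all genes in the same fit. Because the lens sums separate the same libraries as the genotype does, the genotype and the lens level cannot be told apart. The 10 Müller glia markers were all positive between the genotypes as well (median 0.54, with 7 called by DESeq2), as were the 13 mitochondrial genes (median 1.20, with 10 called). The 8 cornea and conjunctiva markers (median 0.54, with 3 called) and the 7 smooth muscle and pericyte markers (median 0.45, with 2 called) were likewise all positive. The cornea sum was 3673 to 6385 CPM in cKO and 2793 to 4181 CPM in WT, and the smooth muscle sum was 507 to 613 CPM in cKO and 358 to 468 CPM in WT. The part of these markers in the 33 genes was not tested. In whole eyes, more cells of a kind and more RNA per cell cannot be told apart either. Hk2 kept its direction with the covariate, at -0.64 (edgeR unadjusted p = 0.251 in that fit). Pdk1 (0.51), Pdk3 (0.25), Pfkfb3 (0.15), Bsg (0.02) and Pdhb (-0.14) also kept theirs.

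**Figure D4:**
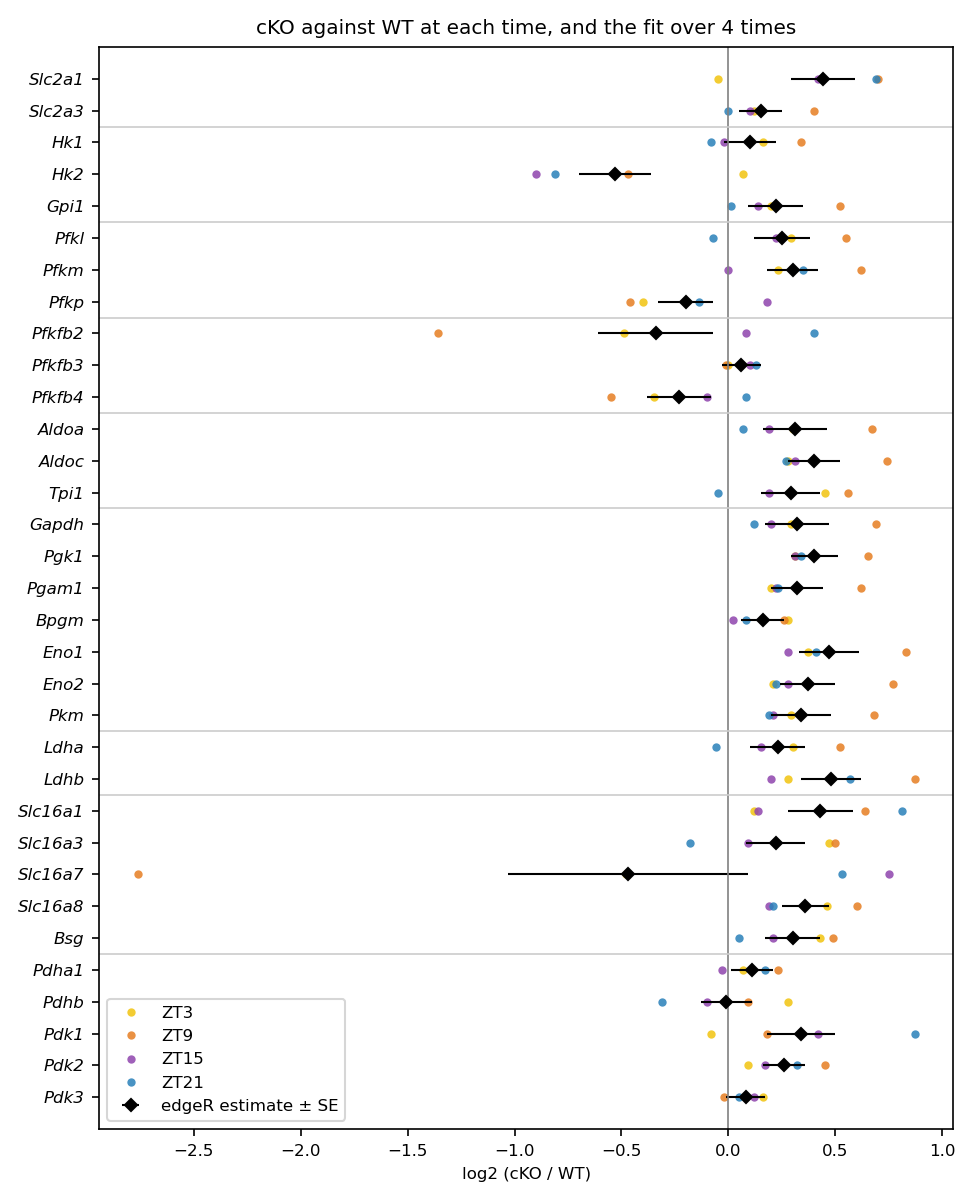
log2 (cKO / WT) of each of the 33 genes at ZT3, ZT9, ZT15 and ZT21 (coloured points, 1 pool against 1 pool) and over the 4 times (black diamonds, edgeR estimate ± SE). Most diamonds lie right of 0, the orange ZT9 points are often farthest right, and Hk2 (-0.53) lies left.

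**Figure D5:**
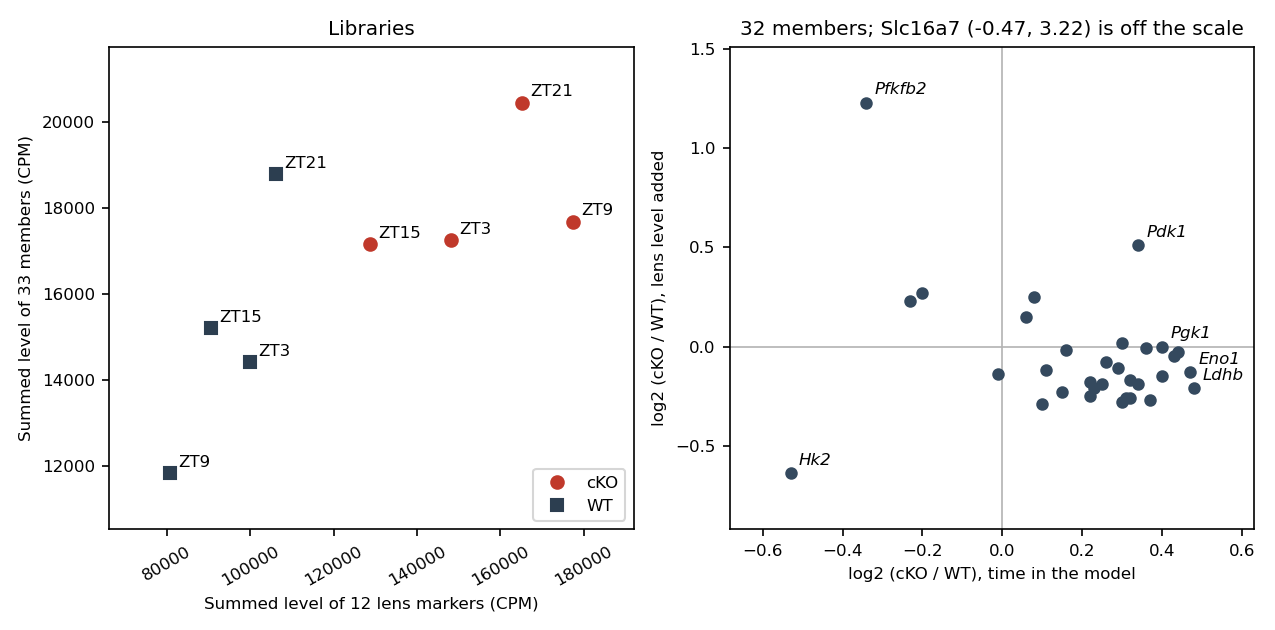
Left, the summed level of the 33 genes against that of the 12 lens markers, both in CPM, for the cKO (red circles) and WT (dark squares) libraries. Right, log2 (cKO / WT) with time in the model (x axis) against the same with the lens level added (y axis) for 32 genes. Slc16a7 lies beyond the scale of the right plot at -0.47 and 3.22, and most of the others move from above 0 on the x axis to below 0 on the y axis.

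Glucose enters through facilitative transporters. Slc2a1, which encodes GLUT1 of the blood-retina barrier, the pigment epithelium and glia, had 338, 247, 251 and 262 CPM in cKO eyes, against 349.9, 152, 188 and 162 CPM in WT eyes. The genotypes were alike at ZT3 and cKO was higher at the other 3 times, and the ranges overlapped because of ZT3 (log2 difference 0.44, SE 0.15, edgeR adjusted p = 0.18). Without both ZT3 libraries the difference was 0.61. Slc2a3, the neuronal transporter GLUT3, had 46.1, 31.2, 29.4 and 29.7 CPM in cKO eyes, against 42.5, 23.6, 27.5 and 29.8 CPM in WT eyes. It was highest at ZT3 in both genotypes, with a log2 difference of -0.38 (SE 0.16) for the times around lights-off minus those around lights-on, which was -0.07 without both ZT3 libraries and -0.25 without WT ZT9.

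Hexokinase holds glucose in the cell by phosphorylating it, and in the mouse retina hexokinase 2 is the form of the photoreceptors. Hk2 (chr6:82725025-82774454, minus strand) had 214, 162, 219 and 204 CPM in cKO eyes, against 204, 224, 409 and 359 CPM in WT eyes. The level in WT was higher in the dark than in the light, while the 4 cKO levels stayed within 162 to 219 CPM. At ZT3 the genotypes were alike, and at the other 3 times cKO was lower, by a log2 difference of -0.47 at ZT9, -0.90 at ZT15 and -0.81 at ZT21. The difference over all times was -0.53 (SE 0.17, edgeR adjusted p = 0.173, DESeq2 adjusted p = 0.0822), and its range when each library was left out in turn was -0.72 to -0.39. The light minus dark difference of cKO minus that of WT was 0.66 (SE 0.32), and the test of the rhythm difference did not pass in edgeR (adjusted p = 1). The housekeeping form Hk1 ranged from 651 to 829.6 CPM in cKO and from 584 to 827 CPM in WT, with a log2 difference of 0.10 (SE 0.12). Glucose phosphate isomerase (Gpi1), the most abundant of the 3 per kilobase, had 694, 785, 754 and 913 CPM in cKO eyes, against 604, 549, 685 and 908 CPM in WT eyes. Its log2 difference of 0.22 (SE 0.13) came with overlapping ranges, and 11.5% of its exon length overlaps an antisense gene.

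The balance of the hexokinases was the sole one of 12 isoform ratios in which the genotypes did not overlap. The log2 ratio of Hk2 to Hk1 was -1.61, -2.36, -1.73 and -1.93 in cKO eyes, against -1.52, -1.55, -0.85 and -1.20 in WT eyes. The means were -1.91 ± 0.33 in cKO and -1.28 ± 0.33 in WT (SD, n = 4 each), a difference of -0.63 with a two-sided exact permutation p = 0.0286, the smallest that 70 arrangements allow. These arrangements ignore time. Sign flips within the 4 times, a test added after seeing the data, gave an exact p = 0.125, the smallest that 4 pairs allow, with cKO lower at all 4. Adjusted over the 12 ratios the exact p was 0.343. Per kilobase, Hk2 had 0.381 of the level of Hk1 in cKO and 0.589 in WT. Both values depend on the joined annotated exon lengths, 5969 bases for Hk2 and 8532 for Hk1. The next ratio, Slc2a3 to Slc2a1, differed by -0.28 (exact permutation p = 0.0857, adjusted 0.429).

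Phosphofructokinase commits the sugar to glycolysis, and its subunits L, M and P are named after liver, muscle and platelet. Pfkl had 264, 305, 324 and 368 CPM in cKO eyes, against 215, 207, 279 and 385 CPM in WT eyes. It was the most abundant of the 3 per kilobase and stood higher in the dark, with a log2 difference of light minus dark of -0.46 (SE 0.15) that was -0.26 without both ZT3 libraries. Pfkm had 133, 136, 115 and 141 CPM in cKO eyes, against 113, 88.3, 115 and 111 CPM in WT eyes, so that the ranges touched at ZT15 (log2 difference 0.30, SE 0.12). Its exons overlap other genes over 10.7% of their length. Pfkp was 1 of the 6 genes with a negative difference between genotypes (-0.20, SE 0.13), at 213, 139.7, 194 and 226 CPM in cKO eyes, against 281, 192, 171 and 249 CPM in WT eyes. Pfkp levels were lower around lights-off than around lights-on, by -0.47 on the log2 scale (SE 0.14).

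The PFKFB enzymes make and break the sugar bisphosphate that activates phosphofructokinase. Pfkfb2 had 116, 58, 70.3 and 68.9 CPM in cKO eyes, against 164, 149, 66.6 and 52.4 CPM in WT eyes. In the light WT was higher, with a log2 difference of cKO over WT of -0.49 at ZT3 and -1.36 at ZT9, whereas it was 0.08 at ZT15 and 0.40 at ZT21. Over the 4 times it was -0.34 (SE 0.27), and -0.01 without cKO ZT9 or without WT ZT9. The light minus dark difference over both genotypes was 0.84 (SE 0.29), 0.54 without WT ZT21 and 0.51 without both ZT3 libraries. In cKO the level at ZT9 was below both dark levels. The light minus dark difference of cKO minus that of WT was -1.16 (SE 0.41, edgeR adjusted p = 1 for the rhythm difference). Of the exon length of Pfkfb2, 19.5% overlaps other genes, so part of its counts may belong to them. Pfkfb3, a strong driver of glycolysis in other tissues, ranged from 24.4 to 28.4 CPM in cKO and from 22.5 to 27.1 CPM in WT (log2 difference 0.06, SE 0.09). Pfkfb4 ranged from 6.06 to 8.73 CPM in cKO and from 7.32 to 11.1 CPM in WT (log2 difference -0.23, SE 0.15).

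Aldolase splits the sugar, and triose isomerase interconverts the 2 products. Aldoa had 2339, 2114, 2008 and 2805 CPM in cKO eyes, against 1901, 1328, 1759 and 2678 CPM in WT eyes. The highest level in both genotypes was at ZT21 and the difference around lights-off minus around lights-on was -0.43 on the log2 scale (SE 0.16). Aldoc, the brain form, had 477, 526, 465 and 517 CPM in cKO eyes, against 394, 314, 375 and 429 CPM in WT eyes. All 4 cKO levels were above all 4 WT levels, with a log2 difference of 0.40 (SE 0.12, edgeR adjusted p = 0.166, DESeq2 adjusted p = 0.0626) and one of -0.15 with the lens level as a covariate. Tpi1 had 439, 539, 614 and 647 CPM in cKO eyes, against 321, 365, 539.6 and 670.4 CPM in WT eyes. It was higher in the dark in both genotypes, with a light minus dark difference of -0.59 (SE 0.16) and of -0.38 without both ZT3 libraries.

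The payoff phase makes ATP and pyruvate. All 7 genes listed with it had a positive difference between the genotypes, against 7010 of all 15373 genes. Of these 7, Bpgm belongs to a side branch. Gapdh, often used as a reference gene, had 3153, 3345, 3079 and 3739.7 CPM in cKO eyes, against 2587, 2068, 2689 and 3445 CPM in WT eyes. Its highest level was 1.81 times its lowest, and cKO was higher at each time (log2 difference 0.32, SE 0.15, edgeR adjusted p = 0.266). Phosphoglycerate kinase (Pgk1), the first ATP-forming step, had 458, 411, 505 and 534 CPM in cKO eyes, against 368, 262, 408 and 421 CPM in WT eyes. cKO was higher at each time, and the log2 difference of 0.40 (SE 0.11) was one of the 3 called by DESeq2 (adjusted p = 0.037), against an edgeR adjusted p of 0.162. With the lens level as a covariate it was -0.00.

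Phosphoglycerate mutase (Pgam1) had 580.2, 449, 468 and 642 CPM in cKO eyes, against 504, 293, 401 and 548 CPM in WT eyes. Both genotypes were lowest at ZT9 and highest at ZT21, and the difference around lights-off minus around lights-on was -0.51 on the log2 scale (SE 0.12, DESeq2 adjusted p = 0.0212, edgeR adjusted p = 0.262). It stayed within -0.58 to -0.43 when any one library was left out. The difference between genotypes was 0.32 (SE 0.12). Bisphosphoglycerate mutase (Bpgm), best known in red cells, ranged from 50.7 to 56.1 CPM in cKO and from 42.3 to 51.9 CPM in WT. The 7 erythrocyte markers summed to 667 to 1121 CPM in cKO and to 1112 to 10232 CPM in WT, highest at WT ZT15, where Bpgm had 50.2 CPM.

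Eno1, the widely expressed enolase, had 1681, 1649.7, 1489.6 and 1851 CPM in cKO eyes, against 1299, 930.1, 1227 and 1395 CPM in WT eyes. The groups did not overlap, and the log2 difference was 0.47 (SE 0.14, DESeq2 adjusted p = 0.0308, edgeR adjusted p = 0.162), with -0.13 under the lens covariate. Eno2, the neuronal enolase, had 333, 326, 307 and 389 CPM in cKO eyes, against 288, 191, 253 and 334 CPM in WT eyes (log2 difference 0.37, SE 0.13). Its ranges overlapped, and cKO was higher at each time. Pkm, the last step, had 2619, 2722, 2472 and 3209 CPM in cKO eyes, against 2138, 1704, 2136 and 2821 CPM in WT eyes (log2 difference 0.34, SE 0.14). Gene-level counts do not separate the splice forms of Pkm, and 15.3% of its exon length overlaps another gene on the same strand. Pseudogene copies of Pgk1 in the table held 0.432% as many counts as Pgk1, and those of Aldoa, Pgam1, Eno1 and Ldha held less, so reads placed between a gene and its copies make these counts slightly uncertain.

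Lactate dehydrogenase links pyruvate and lactate, with the A subunit favouring lactate and the B subunit favouring pyruvate. Ldha (chr7:46841475-46855627, plus strand) had 703, 765, 1035 and 935 CPM in cKO eyes, against 572, 532, 934 and 973 CPM in WT eyes. Both dark times were above both light times in each genotype. The light minus dark difference was -0.61 (SE 0.14, DESeq2 adjusted p = 0.0106, edgeR adjusted p = 0.262), with a range of -0.68 to -0.53 when each library was left out and a value of -0.63 without both ZT3 libraries. The genotypes differed by 0.23 (SE 0.13). Ldhb had 160.0, 149, 117 and 147 CPM in cKO eyes, against 131, 81.9, 101 and 99.2 CPM in WT eyes. It was higher in cKO at each time, most at ZT9, and its difference of 0.48 (SE 0.14, DESeq2 adjusted p = 0.0489, edgeR adjusted p = 0.162) was -0.21 with the lens level as a covariate. The light minus dark difference of Ldhb was 0.15 (SE 0.14, edgeR unadjusted p = 0.313), so that its sign was not established. That of Ldha, whose promoter is printed above, was -0.61.

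Lactate crosses membranes through monocarboxylate transporters. Slc16a3 (chr11:120948480-120960868, plus strand), the exporter MCT4 of strongly glycolytic cells, had 32.4, 43.5, 87.4 and 63.3 CPM in cKO eyes, against 23.4, 30.9, 81.9 and 71.7 CPM in WT eyes. Every dark library was above every light library, with a light minus dark difference of -1.25 (SE 0.14, DESeq2 adjusted p = 1.99e-09, edgeR adjusted p = 0.262). The fitted peak lay at ZT16.9, with a peak 3.58 times the trough. It reached an unadjusted p under 0.05 without each of the 8 libraries, with values of -1.34 to -1.15, and was -1.21 without both ZT3 libraries. The genotypes differed by 0.22 (SE 0.14), with ranges that overlapped widely. The 10 skeletal muscle markers all had a negative light minus dark difference, with a median of -0.41 and a sum of 831, 1094, 971 and 1127 CPM in cKO, against 643, 689, 1123 and 987 CPM in WT. The part of muscle in the level of Slc16a3 was not tested.

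Slc16a1, the widely expressed MCT1, had the opposite course, with 201, 124, 95 and 118 CPM in cKO eyes, against 186, 79.5, 86.2 and 67.1 CPM in WT eyes. ZT3 was the highest time in both genotypes, the light minus dark difference was 0.62 (SE 0.23), and it was 0.10 without both ZT3 libraries and 0.40 without WT ZT21. The genotypes differed by 0.43 (SE 0.15, edgeR adjusted p = 0.185), with cKO higher at each time. Slc16a8, the MCT3 of the outer face of the pigment epithelium, had 65.4, 85.7, 85.4 and 83.8 CPM in cKO eyes, against 47.4, 56.7, 74.8 and 72.4 CPM in WT eyes. It was lowest at ZT3 in both genotypes, the time at which the 8 pigment epithelium markers were highest. Its log2 difference between genotypes was 0.36 (SE 0.11, edgeR adjusted p = 0.162), and that of light minus dark -0.34 (SE 0.12). The pigment epithelium markers summed to 1395 to 1932 CPM in cKO and to 942 to 1815 CPM in WT, and their part in the difference between genotypes was not tested.

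Slc16a7, the high-affinity transporter MCT2, was the least abundant gene and rested on 1 library. It had 7.83, 6.39, 12.3 and 11.8 CPM in cKO eyes, against 10.9, 43.4, 7.3 and 8.17 CPM in WT eyes. WT ZT9 stood apart, and the difference between genotypes of -0.47 (SE 0.56) was 0.27 without that library and 0.26 without both ZT9 libraries. In the test of a rhythm difference between the genotypes 0 of 15373 genes passed an adjusted p of 0.05 in edgeR (0%), and Slc16a7 was the 1 gene of the 33 at an unadjusted p under 0.05 (3.03%, against 474 or 3.08% of all genes). DESeq2 called 110 of 12988 genes there (0.847%) and 0 of the 33. Bsg had 912, 1305, 1216 and 1329 CPM in cKO eyes, against 678, 932, 1048 and 1279 CPM in WT eyes. It was lowest at ZT3 in both genotypes, as was Slc16a8, and cKO was higher at each time (log2 difference 0.30, SE 0.13).

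Pyruvate dehydrogenase admits pyruvate to the mitochondria, and its kinases shut it off by phosphorylation. Of the catalytic subunit genes, Pdha1 ranged from 91.1 to 97.2 CPM in cKO and from 80.3 to 93 CPM in WT, with 16.1% of its exon length shared with an antisense gene. Pdhb ranged from 73.7 to 85.3 CPM in cKO and from 60.8 to 96.9 CPM in WT, with a difference of -0.01 (SE 0.12). Pdk2, the most abundant kinase per kilobase, had 93.5, 99.7, 92.6 and 110.0 CPM in cKO eyes, against 88.1, 73, 82.1 and 88.4 CPM in WT eyes. Its groups did not overlap, with a log2 difference of 0.26 (SE 0.10, edgeR adjusted p = 0.22) and of -0.08 under the lens covariate. Pdk1, a kinase induced by hypoxia in many cells, had 52, 38.1, 33.9 and 41.2 CPM in cKO eyes, against 54.8, 33.6, 25.3 and 22.6 CPM in WT eyes. It was highest at ZT3 in both genotypes (light minus dark 0.54, SE 0.18, 0.27 without both ZT3 libraries and 0.34 without WT ZT21), and the genotypes lay farthest apart at ZT21. The difference between genotypes was 0.34 (SE 0.16), and 0.17 without cKO ZT21. Pdk3 ranged from 24.1 to 26.3 CPM in cKO and from 22.6 to 24.8 CPM in WT, with a log2 difference of 0.08 (SE 0.09).

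Neighbouring pathways were followed through lists of their genes, of which edgeR called 0 at an adjusted p under 0.05 in either the genotype or the rhythm fit. Of 25 other glycolytic isoforms 17 were tested, with a median log2 difference between genotypes of 0.00. At an unadjusted p under 0.05, 2 of the 17 were higher and 1 was lower, against 10.5% and 11% of all genes. The muscle form Pgam2 had 94.5, 155, 122 and 124 CPM in cKO eyes, against 45, 64.1, 76.6 and 105 CPM in WT eyes (log2 difference 0.81, SE 0.18, DESeq2 adjusted p = 0.0058). The muscle enolase Eno3 averaged 89.9 ± 17 CPM in cKO and 67.7 ± 16.1 CPM in WT (SD, n = 4 each), a difference of 0.42 (SE 0.12). Skeletal muscle markers had a median of 0.26 between the genotypes, and their part in these 2 genes was not tested. By time of day, Pgm2 had a light minus dark difference of -0.37 (SE 0.11), and Galm was lower around lights-off than around lights-on (-0.49, SE 0.15).

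Of the 9 genes of the pentose phosphate and polyol pathways, 6 passed that threshold as higher and 1 as lower. The shares of all genes were 10.5% and 11%. Aldose reductase (Akr1b3) averaged 46.8 ± 0.801 CPM in the cKO eyes and 35.5 ± 5.73 CPM in the WT eyes, and ribose phosphate isomerase (Rpia) averaged 13.2 ± 3.65 CPM in the cKO eyes and 18.5 ± 5.66 CPM in the WT eyes (log2 differences 0.41 and -0.47). Sorbitol dehydrogenase (Sord) differed by 0.36 (SE 0.10) and Pgls, of the oxidative branch, by 0.29 (SE 0.10).

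Among 10 glycogen genes, 2 were higher at that threshold, against 10.5% of all genes. Glycogenin (Gyg), the primer of glycogen, had 70.1, 70.4, 69.2 and 79.2 CPM in cKO eyes, against 66.3, 41.8, 45.7 and 41.6 CPM in WT eyes (log2 difference 0.59, SE 0.15, DESeq2 adjusted p = 0.0302). The brain phosphorylase Pygb differed by 0.38 (SE 0.12), while glycogen synthase (Gys1) stood higher in the dark (light minus dark -0.38, SE 0.14). Of 16 citric acid cycle genes 1 was higher (Suclg2, 0.28, SE 0.11) and 1 lower (Dlst, -0.25, SE 0.10), against 10.5% and 11% of all genes. The light minus dark difference was negative in 14 of the 16, against 7399 of all 15373 genes. Among these 14, fumarase (Fh1) had a light minus dark difference of -0.36 (SE 0.13) and the succinate dehydrogenase subunit Sdhb one of -0.40 (SE 0.16). Of 10 genes of pyruvate entry, 1 was higher and none was lower, against 10.5% and 11% of all genes. The higher gene was the basigin relative embigin (Emb), by 0.25 (SE 0.11). Dld, a subunit of pyruvate dehydrogenase, had a light minus dark difference of -0.37 (SE 0.14). The phosphatase gene Pdp2 was high at ZT3 alone, with 14.8, 7.32, 7.43 and 7.74 CPM in cKO eyes, against 15.1, 6.94, 6.84 and 7.46 CPM in WT eyes.

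By time of day, 6 of the 18 hypoxia factors and targets reached an unadjusted p under 0.05 (33.3%, against 17.8% of all genes). The list was split evenly, with 9 of the 18 higher in the light on average and 9 in the dark. Of the 6, 5 were higher in the dark and 1 in the light, Arnt, which was picked out after its values were seen (light minus dark 0.51, SE 0.18). The oxygen sensor Egln1 had 88.7, 121, 165 and 139 CPM in cKO eyes, against 78.1, 104, 168 and 155 CPM in WT eyes, with a light minus dark difference of -0.69 (SE 0.12, DESeq2 adjusted p = 0.000496, edgeR adjusted p = 0.262). P4ha1, a collagen prolyl hydroxylase, differed by -0.60 (SE 0.16) in the same direction, and Ankrd37 by -0.32 (SE 0.14). For Ankrd37 the difference around lights-off minus around lights-on was larger, at 0.55 (SE 0.14). Between the genotypes the list had a median of 0.05, with 11 of the 18 positive and 7 negative. At an unadjusted p under 0.05, 1 was higher and 1 was lower, against 10.5% and 11% of all genes. The higher gene was Vhl, by 0.28 (SE 0.10, edgeR adjusted p = 0.198). The lower gene was Hif3a, by -0.75 (SE 0.15, edgeR adjusted p = 0.157). Hif3a was scarce, with averages of 2.95 ± 0.728 CPM for the cKO eyes and 5 ± 1.55 CPM for the WT eyes.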

How the data were processed

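RNA of whole eyes was sequenced in 8 libraries, 1 pool of 3 mice for each genotype and time. The authors deposited unnormalized read counts, 1 row per gene symbol, judged from whole numbers whose totals differ between libraries. Aligner, counting program, genome build, annotation and strand setting: not given in the sources used here. From the 32544 gene symbols, 27 that had been turned into dates were left out (0.123 to 0.145% of the counts).

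Differences were tested with the quasi-likelihood F test of edgeR 4.0.16 under R 4.3.3, after TMM scaling and the filterByExpr filter on genotype. That left 15373 genes, over which p-values were adjusted by Benjamini-Hochberg (threshold 0.05). The genotype fit had time as a factor (3 residual degrees of freedom). The rhythm fit had a 24 h wave and genotype (4), and the rhythm difference a wave in each genotype (2). With 4 times, 6 h apart, other shapes cannot be told from a wave. limma 3.58.1 and DESeq2 1.42.0 were alternatives, where DESeq2 shares count only genes with an adjusted p. CPM used TMM-scaled totals, and exon lengths came from GENCODE M21 (GRCm38), which may differ from the authors' annotation. The steps were tested on simulated data.

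The members and lists were chosen with earlier results of these data known. Values per library are given for members at an unadjusted p under 0.05 in any of the 3 fits and for the member with the highest level per kilobase of each role. Other members are given by range. Pathway lists give at most 4 genes each, smallest p first, except that the hypoxia list also names Arnt and Vhl. One result of the glycogen list is not reported here.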

Additional observations from a re-analysis of the deposited data

Results flagged for a closer look

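In 66 groups of 4 libraries, 6 held a library far from the other 3 of its genotype, by Dixon's criterion, which flags about 1 in 20 groups by chance. The 4 libraries of a group are different times, so a gene high at 1 time can be flagged. At cKO ZT3, Slc2a1 had 338 CPM (247 to 262 CPM at the other times), Slc2a3 had 46.1 CPM (29.4 to 31.2 CPM) and Slc16a8 had 65.4 CPM (83.8 to 85.7 CPM). At WT ZT3, Slc16a1 had 186 CPM (67.1 to 86.2 CPM). At WT ZT9, Pfkm had 88.3 CPM (111 to 115 CPM) and Slc16a7 had 43.4 CPM (7.3 to 10.9 CPM).

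Slc16a7 also differed between the genotypes by time of day. The light minus dark difference of cKO minus that of WT was -2.28 on the log2 scale (SE 0.70; edgeR adjusted p = 1 over all genes), with the WT ZT9 library as the highest. Its cause was not tested.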

How the results depend on the processing

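Precision is limited by 1 pool per genotype and time. At the deposited depth the lowest count of a member was 97. Slc16a3 kept its direction and an unadjusted p under 0.05 without each of the 8 libraries. Pools were paired by time through the time factor, since the labels give no other pairing. Without it 5 members were higher in cKO at an unadjusted p under 0.05 (15.2%, against 5.63% of all genes). Where no cause is shown by the way a setting is built, the cause was not tested.

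Genes past an adjusted p of 0.05 between genotypes numbered 546 with DESeq2 and 7 with no low-count filter. Members higher in cKO at an unadjusted p under 0.05 numbered 2 with the lens level as a covariate (6.06%, against 5.89% of all genes). They numbered 6 without both ZT9 libraries (18.2%, against 6.37%) and 6 without both ZT15 libraries (18.2%, against 6.04%). When 1 library was left out there were 6 to 11 (18.2 to 33.3%, against 6.05 to 12.3%). Members lower numbered 1 in the main fit (3.03%, against 11% of all genes). They numbered 0 with the lens covariate, 0 without both ZT15 libraries, 0 without both ZT21 libraries and 0 to 1 when 1 library was left out. For the rhythm, 609 genes passed with DESeq2, 3 with no low-count filter, 1543 without both ZT9 libraries, 325 without both ZT21 libraries and 0 to 1 when 1 library was left out. Members in the rhythm numbered 5 without both ZT3 libraries (15.2%, against 2.65% of all genes) and 7 without both ZT21 libraries (21.2%, against 27.1%). When 1 library was left out there were 4 to 14 (12.1 to 42.4%, against 5.65 to 24%). Those in the rhythm difference numbered 1 in the main fit (3.03%, against 3.08% of all genes), 2 with DESeq2 and 2 with no low-count filter. The shares of all genes with DESeq2 and with no low-count filter are not given here, so these counts cannot be set against them.

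With the lens covariate the log2 difference between genotypes turned for Slc2a1 (-0.03), Slc2a3 (-0.23), Hk1 (-0.29), Gpi1 (-0.25), Pfkl (-0.19), Pfkm (-0.28), Pfkp (0.27), Pfkfb2 (1.23), Pfkfb4 (0.23), Aldoa (-0.26), Aldoc (-0.15), Tpi1 (-0.11), Gapdh (-0.26), Pgk1 (-0.00), Pgam1 (-0.17), Bpgm (-0.02), Eno1 (-0.13), Eno2 (-0.27), Pkm (-0.19), Ldha (-0.21), Ldhb (-0.21), Slc16a1 (-0.05), Slc16a3 (-0.18), Slc16a7 (3.22), Slc16a8 (-0.01), Pdha1 (-0.12) and Pdk2 (-0.08). For Slc16a7 it was 0.26 without both ZT9 libraries and -0.90 to 0.27 when 1 library was left out. For Pdhb it was 0.00 with DESeq2, 0.00 with RLE size factors, 0.01 with no low-count filter, 0.02 without both ZT15 libraries, 0.10 without both ZT21 libraries and -0.10 to 0.10 when 1 library was left out.

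Isoform pairs without overlap numbered 2 without both ZT3 libraries, 2 without both ZT15 libraries and 1 to 2 when 1 library was left out. Without both ZT21 libraries the ratio differences of Pfkl/Pfkm, Slc16a3/Slc16a1, Slc16a8/Slc16a1 and Pdk2/Pdk1 were 0.07, 0.05, 0.12 and 0.06. When 1 library was left out they ran from -0.18 to 0.11, -0.84 to 0.24, -0.51 to 0.24 and -0.32 to 0.11 in the same order, and that of Aldoc/Aldoa from -0.02 to 0.17.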
